A study of Homo sapiens with 6 samples.

Results

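A set of 45 genes that cells use in amino-acid shortage and endoplasmic reticulum (ER) stress was examined in AN3CA cells, an established human endometrial cancer cell line that expresses *PAX2*. The members were chosen by symbol, with earlier results of these data known, and all 45 were among the 17471 genes with deposited values. They comprised 9 stress sensors and transcription factors, 26 genes described as ATF4 targets and 10 ER chaperones or ER-associated degradation (ERAD) genes. RNA-seq was performed on 3 libraries of shEV cells, which carried the empty hairpin vector pGFP-C-shLenti and have the genotype label WT, and on 3 libraries of shPAX2 cells, which carried a single hairpin against *PAX2* and have the genotype label PAX2 KD. Cells of both groups were transduced, selected with puromycin and grown in MEM with 10% FBS, so no untransduced cells were compared. The study's methods give an empty vector as the control, while elsewhere its text names a scrambled hairpin. A single hairpin was used, and the labels do not say whether replicates were separate cultures, so that p-values measure only the spread between these libraries, which may be technical.

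ATF4 is a transcription factor whose translation increases when kinases phosphorylate the initiation factor eIF2alpha, and the kinase for ER stress is PERK, encoded by *EIF2AK3*. ATF4 with its partners activates genes for amino-acid import, amino-acid synthesis and tRNA charging. The other ER sensors, IRE1 (encoded by *ERN1*) and ATF6, raise chaperones and ERAD genes through spliced *XBP1* and cleaved ATF6. These steps act largely through translation, splicing and cleavage, which a table of transcript levels per gene does not measure.

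The DNA elements known for the target arms were located in the RefSeq promoter windows (GRCh38.p14, 250 bases before to 50 after each start). Of the 45 members, 40 had a window, and *PSPH*, *SHMT2*, *ALDH1L2*, *PYCR1* and *SLC7A11* had no entry. The C/EBP-ATF response element, searched as TGATGNAA on both strands, was present for 11 of the 40 members (27.5%) and for 4.46% of all 27305 genes with a window. Counted per window, it was in 17.7% of 62 member windows and 3.62% of all 35116. Among the 21 ATF4-target members with a window, 9 (42.9%) held it. The sites shown are written on the strand of the gene, with the element or its reverse complement in capitals, because they mark the members whose expression follows below.
ASNS: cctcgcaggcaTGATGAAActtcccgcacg
CHAC1: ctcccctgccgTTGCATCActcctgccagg
SLC1A5: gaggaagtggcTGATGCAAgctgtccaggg
AARS: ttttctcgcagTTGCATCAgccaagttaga
GARS: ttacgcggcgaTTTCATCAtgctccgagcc
CEBPG: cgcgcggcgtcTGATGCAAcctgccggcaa
These stretches lie at chr7:97872458-97872487 (*ASNS*, minus strand), chr15:40953251-40953280 (*CHAC1*, plus), chr19:46784893-46784922 (*SLC1A5*, minus), chr16:70289675-70289704 (*AARS*, minus), chr7:30594834-30594863 (*GARS*, plus) and chr19:33374060-33374089 (*CEBPG*, plus). The other members with the element were *SLC3A2*, *SLC7A1*, *SLC1A4*, *MARS* and *HERPUD1*.

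The ER stress response element, CCAAT and CCACG separated by 9 bases, was rarer. It was present for 25 of the 27305 genes (0.0916%), of which 6 were members, namely *XBP1*, *HSPA5*, *HSP90B1*, *CALR*, *CANX* and *PDIA6*. Of the 10 ER folding and ERAD members 5 held it, and of the 21 ATF4-target members with a window 0 did. *HSP90B1* held 2 copies. The element is shown in capitals for the members that represent the ER arm.
HSPA5: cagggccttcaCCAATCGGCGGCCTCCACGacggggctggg
HSP90B1: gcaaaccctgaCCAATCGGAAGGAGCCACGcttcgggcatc
CALR: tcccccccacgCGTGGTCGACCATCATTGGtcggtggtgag
XBP1: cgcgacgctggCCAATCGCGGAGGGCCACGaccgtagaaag
They lie at chr9:125241380-125241420 (*HSPA5*, minus), chr12:103930205-103930245 (*HSP90B1*, plus), chr19:12938373-12938413 (*CALR*, plus) and chr22:28800592-28800632 (*XBP1*, minus). The unfolded protein response element TGACGTGG was in the windows of 0.927% of genes and of a single member, *ALDH18A1*. The letters CCACG are also part of the reverse complement of this element, and no member held it together with the ER stress element. A match gives letters in a window and was not tested as a binding site. The members were chosen as genes of these pathways, for which the elements are known. Shares above those of all genes therefore follow from that choice and are no independent support for the groups.

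The values were TPM, a transcript level corrected for the length of the gene and for the size of the library. Whole reads recovered from them gave 10730909 to 18221859 reads in shEV and 19422615 to 29405787 reads in shPAX2, and the shallowest shPAX2 library exceeded the deepest of shEV. *PAX2* was measured at 4.03, 3.66 and 2.74 TPM in shEV and at 0.916, 0.723 and 1.17 TPM in shPAX2, and differed with a log2 fold change of -1.47 (SE 0.18, limma adjusted p = 0.000294). The first principal component separated shEV from shPAX2 and held 66.4% of the variance. The libraries are labelled epithelial cells, yet *EPCAM*, *CDH1*, *KRT7*, *KRT8*, *KRT19*, *CLDN4*, *CLDN7* and *ESRP1* were below 0.5 TPM in every library, and of 9 listed epithelial markers *KRT18* alone reached 0.5 TPM. Summed epithelial marker levels were 10.9 to 13.4 TPM in shEV and 12.3 to 18.1 TPM in shPAX2, against 4152 to 4531 and 3863 to 3973 TPM for 6 mesenchymal markers. Most of the latter sum was *VIM* (mean 4212 TPM in shEV and 3808 TPM in shPAX2), and *CDH2* and *ZEB2* were below 0.5 TPM in every library. Leukocyte and endothelial markers were at most 0.376 TPM in sum. The part of the depth difference and of the marker levels in the results was not tested, except that reads were thinned to equal depth, as given with the counts.

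The members were compared as log2(TPM + 0.5) with limma over the 13163 genes with at least 0.5 TPM in at least 3 libraries, and a gene was called at an adjusted p under 0.05. Of the 45 members, 44 were tested, since *STC2* was below the filter. In shPAX2, 17 members were higher, 9 were lower and 18 were not called. In bulk RNA, a change in the share of cells that express a gene and a change of its RNA per cell cannot be told apart. Among all genes tested, 12.2% were higher, 30.5% were lower and 42.8% were called either way, against 38.6%, 20.5% and 59.1% of the members. Since members and lists were chosen with earlier results known, such comparisons describe the groups and are no independent support. The groups did not overlap for 30 of the 44 members and for 54.9% of all genes.

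These differences were small. On the log2(TPM + 0.5) scale 0 members reached a log2 fold change of 1 in size, whatever their p, while 4.54% of all genes were called and past it. *CEBPB* lay at that limit, with -0.997 in limma and -0.999 by voom on the recovered reads. Its value was past it with a pseudocount of 0.1 (-1.04), with thinning to the smallest library (-1.12), and when shEV replicate 2 (-1.07), shPAX2 replicate 1 (-1.03) or shEV replicate 3 (-1.02) was left out. The ratio of its mean TPM was 2.08. The median log2 fold change was 0.08 over the members and -0.10 over all genes, and 30 members were above the median of all genes.

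The sign of small differences depended on how the libraries were scaled. With median-of-ratios scaling, the median of all genes was 0.01, and 23 members were higher and 5 lower, while 21.8% of all genes were higher and 19.6% lower. Of the called members, 65.4% were higher as deposited and 82.1% with that scaling. Of all called genes, the share that was higher was 28.6% as deposited, 52.6% with median-of-ratios scaling and 48.7% with quantile normalization. With every library thinned to the depth of the smallest, 15 members were higher and 7 lower. Of all genes 1454 were then higher and 3468 lower, against 1612 and 4017 as deposited.

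**Figure D1:**
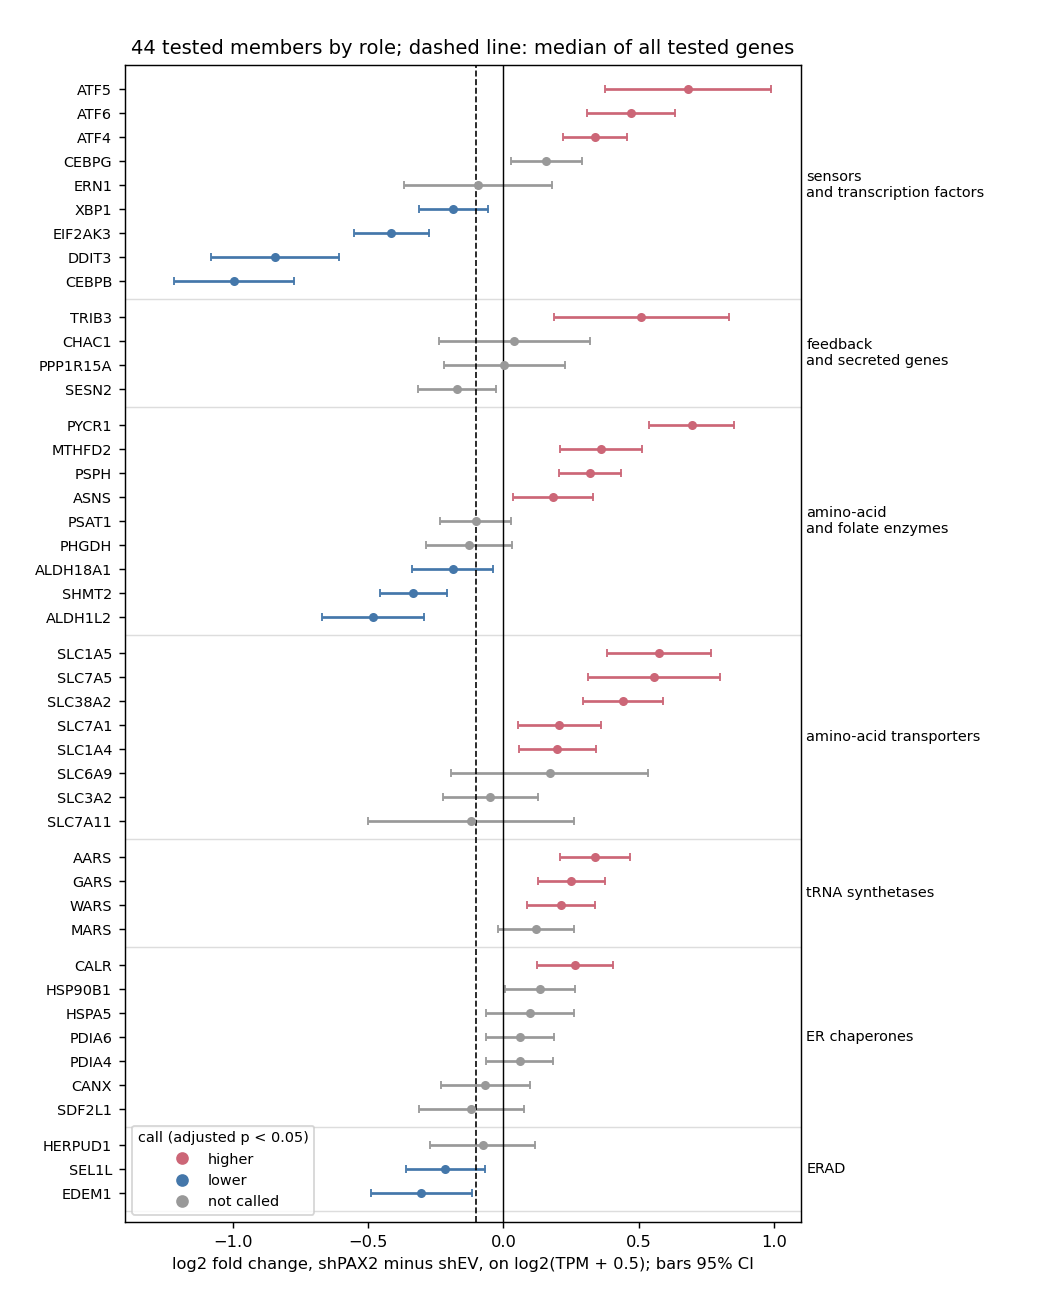
Log2 fold change of each of the 44 tested members, shPAX2 minus shEV on log2(TPM + 0.5), grouped by role, with 95% confidence intervals as bars, colour for the call and a dashed line at the median of all tested genes (-0.10). The amino-acid transporters and tRNA synthetases that were called lie to the right of 0, both called ERAD genes lie to the left, and the sensors and transcription factors extend to both sides, from -0.997 for *CEBPB* to 0.68 for *ATF5*.

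The sensors and transcription factors changed in opposite directions. *ATF4*, *ATF5* and *ATF6* were higher in shPAX2, while *EIF2AK3*, *XBP1*, *DDIT3* and *CEBPB* were lower. *ERN1* and *CEBPG* were not called. The higher genes were 33.3% of the 9 and the lower genes 44.4%, against 12.2% and 30.5% of all genes.

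*ATF4* transcripts were at 233, 230 and 226 TPM in shEV and at 288, 289 and 295 TPM in shPAX2. All shPAX2 libraries were above all shEV libraries, and the groups were far apart for their spread (229.7 ± 3.70 and 291 ± 3.86, SD, n = 3). The level was 1.27-fold higher as the ratio of mean TPM, which is how each fold is given, with a log2 fold change of 0.34 (SE 0.05, limma adjusted p = 0.00102). *ATF5*, a related factor induced in the same stress, was at 5.41, 4.62 and 4.90 TPM in shEV and at 6.69, 9.81 and 8.63 TPM in shPAX2. The shPAX2 libraries varied more for this gene and still did not overlap shEV (log2 fold change 0.68, SE 0.14, limma adjusted p = 0.00386). The annotation places *ATF5* over *NUP62* and *IL4I1* on the opposite strand.

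The sensor transcripts did not move together. *EIF2AK3*, which encodes PERK, was at 18.8, 19.3 and 19.8 TPM in shEV and at 14.3, 14.2 and 14.5 TPM in shPAX2. Its level was 1.35-fold lower in shPAX2 with no overlap (log2 fold change -0.41, SE 0.06, limma adjusted p = 0.000864). *ATF6*, the membrane-bound factor released by cleavage, was at 15.01, 15.5 and 16.7 TPM in shEV and at 20.7, 22.4 and 22.9 TPM in shPAX2. It was 1.40-fold higher in shPAX2, again with no overlap (log2 fold change 0.47, SE 0.07, limma adjusted p = 0.000962). *ERN1*, which encodes IRE1, was at 5.12, 5.17 and 6.86 TPM in shEV and at 5.19, 5.28 and 5.37 TPM in shPAX2. The shPAX2 values lay within the shEV range, and the log2 fold change of -0.09 had a 95% confidence interval of -0.37 to 0.18 (limma adjusted p = 0.567).

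The largest falls among the members were those of *DDIT3* and *CEBPB*. *DDIT3*, which encodes CHOP, a factor linked to death in prolonged stress, was at 24.98, 22.6 and 30.7 TPM in shEV and at 13.9, 14.0 and 14.6 TPM in shPAX2. It was 1.84-fold lower, with every shPAX2 library under every shEV library (log2 fold change -0.84, SE 0.10, limma adjusted p = 0.000325). *CEBPB*, a bZIP factor that pairs with ATF4 and CHOP, was at 16.6, 13.1 and 14.1 TPM in shEV and at 7.41, 6.69 and 7.0 TPM in shPAX2. It was 2.08-fold lower with no overlap (log2 fold change -0.997, SE 0.10, limma adjusted p = 9.23e-05).

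*XBP1*, the messenger RNA that IRE1 splices, was at 116, 112 and 122 TPM in shEV and at 101, 105 and 101 TPM in shPAX2, counting spliced and unspliced forms together. The groups did not overlap and the difference was small (log2 fold change -0.18, SE 0.06, limma adjusted p = 0.0277). Its call did not hold with median-of-ratios scaling (log2 fold change -0.07, adjusted p = 0.279), nor without shEV replicate 1 (adjusted p = 0.0603), shEV replicate 3 (0.0882), shPAX2 replicate 2 (0.0633) or shPAX2 replicate 3 (0.0743) in limma. *CEBPG*, the partner of ATF4 that carries the response element shown above, had 22.8 to 23.9 TPM in shEV and 25.4 to 26.2 TPM in shPAX2. Its log2 fold change of 0.16 had a 95% confidence interval of 0.03 to 0.29 and missed the threshold in limma (adjusted p = 0.0516), and it passed with median-of-ratios scaling (adjusted p = 0.00513) and with 4 further settings.

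**Figure D2:**
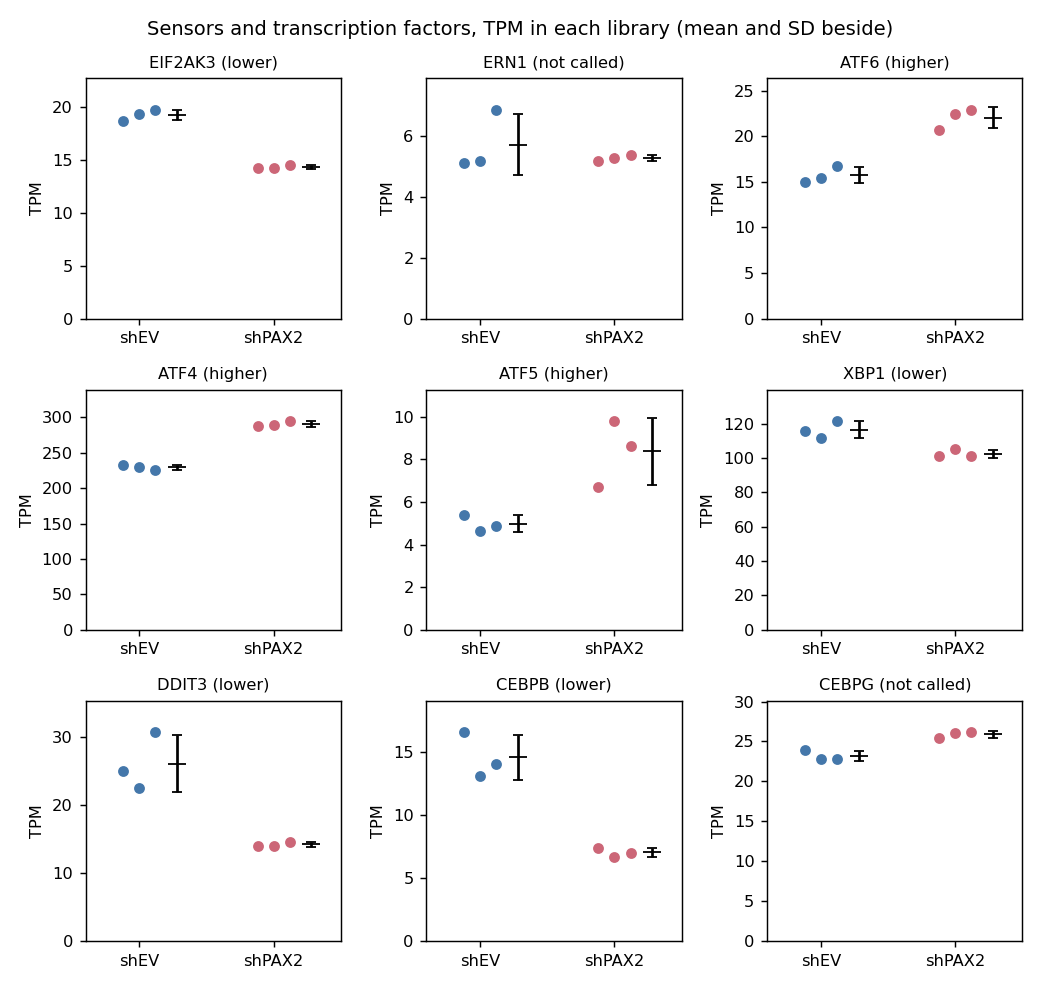
TPM of the 9 sensors and transcription factors in each library, with shEV in blue and shPAX2 in red, from 0 on each vertical axis, and the mean and SD (n = 3) beside the points. *ATF4*, *ATF5* and *ATF6* are higher in all shPAX2 libraries, *EIF2AK3*, *XBP1*, *DDIT3* and *CEBPB* are lower in all of them, and the *ERN1* groups overlap.

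Among the ATF4-target members, 13 of the 25 tested were higher in shPAX2, 3 were lower and 9 were not called, with a median log2 fold change of 0.18. The higher genes were 52.0% of those tested, against 12.2% of all genes, and the lower share stood below the 30.5% of all genes. Leaving out shPAX2 replicate 2 left 8 higher, the lowest count of the 6 fits that each omit a library. That fit also left the fewest of all genes higher, 1045 in place of 1612. The median stayed above 0 under each scaling and was 0.30 with median-of-ratios scaling. Of the 9 targets whose window holds the C/EBP-ATF element, *ASNS*, *SLC1A5*, *SLC7A1*, *SLC1A4*, *AARS* and *GARS* were higher, and *CHAC1*, *SLC3A2* and *MARS* were not called. Targets whose window lacks the element were also called, with *TRIB3*, *MTHFD2*, *SLC7A5*, *SLC38A2* and *WARS* higher and *ALDH18A1* lower. In that group *SESN2*, *PPP1R15A*, *PSAT1*, *PHGDH* and *SLC6A9* were not called. A link between the element and the calls was not tested, in the members or in all genes. *CEBPG* and *HERPUD1*, which also hold the element, were assigned to other groups and were not called. The counts and the median of the targets depend on such assignments. *DDIT3* (log2 fold change -0.84), *CEBPB* (-0.997) and *ATF5* (0.68) were placed with the transcription factors and are left out of them.

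**Figure D3:**
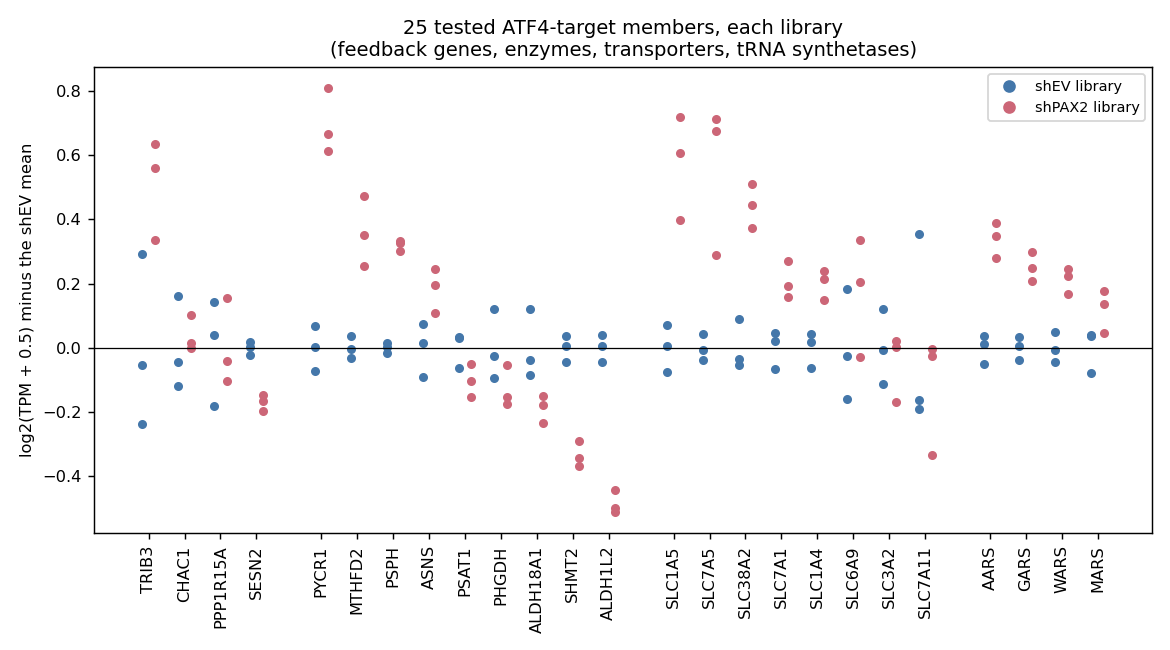
Level of each of the 25 tested ATF4-target members in each library, as log2(TPM + 0.5) minus the shEV mean of that gene, with shEV libraries in blue and shPAX2 libraries in red. *PYCR1*, *SLC1A5*, *SLC7A5* and *TRIB3* have shPAX2 points furthest above 0, and *SHMT2* and *ALDH1L2* have theirs furthest below. The points of *CHAC1*, *PPP1R15A*, *PSAT1*, *PHGDH*, *SLC3A2*, *SLC6A9* and *SLC7A11* overlap.

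The feedback genes were mostly not called. *TRIB3*, a pseudokinase that ATF4 induces and that restrains it, was at 15.3, 10.5 and 11.97 TPM in shEV and at 19.6, 18.6 and 15.8 TPM in shPAX2. The shPAX2 libraries lay above shEV, by a narrow gap between shPAX2 replicate 3 and shEV replicate 1 (log2 fold change 0.51, SE 0.14, limma adjusted p = 0.0208). The call did not hold without shEV replicate 2 (adjusted p = 0.0546), shEV replicate 3 (0.0743), shPAX2 replicate 1 (0.0666) or shPAX2 replicate 2 (0.0717) in limma. *CHAC1*, which degrades glutathione, was at 2.47 to 3.10 TPM in shEV and 2.72 to 2.96 TPM in shPAX2 (log2 fold change 0.04, 95% confidence interval -0.24 to 0.32), so its groups overlapped. *PPP1R15A*, which guides the phosphatase that reverses eIF2alpha phosphorylation, was at 22.3 to 27.97 TPM in shEV and 23.5 to 28.3 TPM in shPAX2, with a log2 fold change of 0.00 (95% confidence interval -0.22 to 0.23). *SESN2*, a sensor of leucine that restrains mTORC1, had 14.5 to 14.9 TPM in shEV and 12.8 to 13.2 TPM in shPAX2 without overlap, and a log2 fold change of -0.17 that missed the threshold (limma adjusted p = 0.0569). Of these 4 tested genes 0 were called lower, against 30.5% of all genes, with 1 at an unadjusted p under 0.05 and 0 by voom. Counts among 4 genes say little.

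Of 9 amino-acid and folate enzymes 4 were higher, 3 lower and 2 not called. The higher share was 44.4%, against 12.2% of all genes, and the lower share of 33.3% was near the 30.5% of all genes. *PYCR1*, which makes proline in mitochondria, was at 88.6, 97.6 and 93.3 TPM in shEV and at 143, 164 and 148 TPM in shPAX2. It was 1.62-fold higher with no overlap (log2 fold change 0.70, SE 0.07, limma adjusted p = 9.48e-05). Of the members only *ATF5* had a larger ratio of mean TPM, at 1.68. *MTHFD2*, a mitochondrial folate enzyme, was at 106, 103 and 101 TPM in shEV and at 123, 132 and 143 TPM in shPAX2. It was 1.29-fold higher, again without overlap (log2 fold change 0.36, SE 0.07, limma adjusted p = 0.00274).

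*PSPH*, which completes serine synthesis, was at 75.0, 75.7 and 74.0 TPM in shEV and at 94.5, 93.9 and 92.5 TPM in shPAX2. The libraries of a group were close to each other (SD 0.842 and 1.06 TPM), and the level was 1.25-fold higher (log2 fold change 0.32, SE 0.05, limma adjusted p = 0.00126). *PSAT1* and *PHGDH*, which catalyse the preceding steps, were not called. *PSAT1* had 95.2 to 102 TPM in shEV and 89.5 to 96.0 TPM in shPAX2. *PHGDH* had 137 to 159 TPM in shEV and 130 to 141 TPM in shPAX2. Their log2 fold changes of -0.10 and -0.13 were close to the median of all genes, and the groups overlapped.

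*ASNS*, the asparagine synthetase that is often used as a readout of ATF4, was at 56.4, 50.3 and 54.2 TPM in shEV and at 63.6, 57.8 and 61.5 TPM in shPAX2. The lowest shPAX2 library was above the highest shEV library, and the difference was 1.14-fold (log2 fold change 0.18, SE 0.07, limma adjusted p = 0.0484). The call held without shEV replicate 1 and was lost without each of the other 5 libraries, with adjusted p from 0.0607 without shPAX2 replicate 2 to 0.161 without shEV replicate 2 in limma (0.0902 without shEV replicate 3, 0.102 without shPAX2 replicate 1, 0.110 without shPAX2 replicate 3).

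The 3 lower enzymes act in mitochondria. *SHMT2*, which passes a carbon from serine to folate, was at 149, 157 and 154 TPM in shEV and at 121, 125 and 119 TPM in shPAX2. It was 1.26-fold lower with no overlap (log2 fold change -0.33, SE 0.05, limma adjusted p = 0.00146). *ALDH1L2*, which oxidises the formyl group of mitochondrial folate, was at 7.39, 7.67 and 7.86 TPM in shEV and at 5.49, 5.22 and 5.26 TPM in shPAX2. It was 1.44-fold lower with no overlap (log2 fold change -0.48, SE 0.08, limma adjusted p = 0.00188). *ALDH18A1*, which begins proline synthesis from glutamate, had 170 to 195 TPM in shEV and 153 to 162 TPM in shPAX2 (log2 fold change -0.19, SE 0.07, limma adjusted p = 0.0483). Its call held without shEV replicate 1 and was lost without each other library, with adjusted p from 0.0864 without shEV replicate 2 to 0.149 without shEV replicate 3, and with median-of-ratios scaling (0.361).

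Of the 8 amino-acid transporters 5 were higher (62.5%, against 12.2% of all genes) and 0 were lower (against 30.5%). The number lower was also 0 at an unadjusted p under 0.05 and by voom. Summed over the 8, shEV had 511 ± 26.3 TPM and shPAX2 had 656 ± 38.7 TPM (SD, n = 3). *SLC38A2*, the SNAT2 importer of small neutral amino acids, was the most abundant transporter, at 301, 273 and 276 TPM in shEV and at 367, 386 and 404 TPM in shPAX2. It was 1.36-fold higher with no overlap (log2 fold change 0.44, SE 0.06, limma adjusted p = 0.000820). *SLC1A5*, the ASCT2 glutamine exchanger with the element shown above, was at 57.5, 55.0 and 51.9 TPM in shEV and at 72.3, 90.4 and 83.5 TPM in shPAX2. It was 1.499-fold higher in shPAX2, with its lowest value in shPAX2 replicate 1 (log2 fold change 0.57, SE 0.08, limma adjusted p = 0.000851).

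*SLC7A5*, the LAT1 light chain that exchanges large neutral amino acids, was at 28.6, 30.2 and 29.2 TPM in shEV and at 35.9, 48.4 and 47.1 TPM in shPAX2. The level was 1.49-fold higher and shPAX2 replicate 1 was again the lowest of its group (log2 fold change 0.56, SE 0.11, limma adjusted p = 0.00369). *SLC3A2*, the heavy chain that pairs with LAT1, had 95.3 to 112 TPM in shEV and 91.7 to 105 TPM in shPAX2. It was not called, and its log2 fold change of -0.05 had a 95% confidence interval of -0.23 to 0.13. *SLC7A1*, which carries arginine and lysine, had 13.9 to 15.1 TPM in shEV and 16.4 to 17.7 TPM in shPAX2 (log2 fold change 0.21, SE 0.07, limma adjusted p = 0.0365). *SLC1A4*, the ASCT1 exchanger, had 18.6 to 20.1 TPM in shEV and 21.6 to 23.1 TPM in shPAX2 (log2 fold change 0.20, SE 0.06, limma adjusted p = 0.0308).

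The calls of *SLC7A1* and *SLC1A4* were not stable to leaving out a library. *SLC7A1* lost it whichever of the 6 libraries was left out, with adjusted p from 0.0527 without shPAX2 replicate 1 to 0.124 without shPAX2 replicate 3 in limma. *SLC1A4* lost it without shEV replicate 1 (0.0569), shEV replicate 3 (0.0829), shPAX2 replicate 1 (0.0648) or shPAX2 replicate 2 (adjusted p = 0.104 in limma). *SLC7A11*, the cystine importer, and *SLC6A9*, a glycine carrier, were low, at 3.13 to 5.35 and 1.20 to 1.89 TPM over the 6 libraries, and their groups overlapped. The 95% confidence intervals of their log2 fold changes were -0.50 to 0.26 and -0.19 to 0.53, so that a change of either sign within these bounds remains possible.

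Of the 4 tRNA synthetases, which load amino acids onto tRNAs, 3 were higher (75.0%, against 12.2% of all genes). The number lower was 0, against 30.5% of all genes, and also 0 at an unadjusted p under 0.05 and by voom. *AARS*, for alanine, was at 120, 118 and 113 TPM in shEV and at 142, 153 and 149 TPM in shPAX2. It was 1.27-fold higher with no overlap (log2 fold change 0.34, SE 0.06, limma adjusted p = 0.00175). *GARS*, for glycine, was at 131, 128 and 125 TPM in shEV and at 148, 152 and 157 TPM in shPAX2. The difference was 1.19-fold, and the groups did not overlap (log2 fold change 0.25, SE 0.05, limma adjusted p = 0.00608). *WARS*, for tryptophan, had 168 to 179 TPM in shEV and 195 to 205 TPM in shPAX2 (log2 fold change 0.21, SE 0.06, limma adjusted p = 0.0139), and lost its call without shEV replicate 2 (0.0583) or shPAX2 replicate 2 (0.0597).

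*MARS*, for methionine, had 98.5 to 107 TPM in shEV and 107 to 118 TPM in shPAX2, and was not called (log2 fold change 0.12, limma adjusted p = 0.149). *MARS* and *DDIT3* overlap on opposite strands of chromosome 12 (GRCh37, chr12:57869228-57911352 and chr12:57910371-57915520), and reads in the shared stretch cannot be told apart if counting ignored strand, which the sources used here do not give for this line. Named pseudogenes exist for 11 members, *ATF4*, *ASNS*, *PSAT1*, *MTHFD2* and *HSPA5* among them, and reads shared with them are uncertain.

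The ER chaperones were abundant and had log2 fold changes from -0.12 to 0.26. Summed over the 7, shEV had 4493 ± 109 TPM and shPAX2 had 4883 ± 80.3 TPM (SD, n = 3). The sums were 4425 to 4620 TPM in shEV and 4794 to 4950 TPM in shPAX2, without overlap. *HSPA5*, the BiP chaperone that is the usual readout of the unfolded protein response, was at 130, 127 and 113 TPM in shEV and at 124, 137 and 135 TPM in shPAX2. The groups overlapped, and the log2 fold change of 0.10 had a 95% confidence interval of -0.06 to 0.26 (limma adjusted p = 0.299).

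*CALR*, the calcium-binding lectin calreticulin, was at 1511, 1546 and 1554 TPM in shEV and at 1950.0, 1871 and 1722 TPM in shPAX2. It was the only chaperone of 7 called in limma, 1.20-fold higher with no overlap (log2 fold change 0.26, SE 0.06, adjusted p = 0.00885). *HSP90B1*, the ER member of the HSP90 family, had 695 to 756 TPM in shEV and 782 to 794 TPM in shPAX2 without overlap, and missed the threshold (log2 fold change 0.13, limma adjusted p = 0.0840). *CANX*, *PDIA4*, *PDIA6* and *SDF2L1*, which retain, oxidise or assist folding proteins, had overlapping groups and log2 fold changes from -0.12 for *SDF2L1* to 0.06 for *PDIA6*. The number of chaperones lower was 0 in limma, and also 0 at an unadjusted p under 0.05 and by voom. As shares in limma, 14.3% of the 7 were higher and 0 lower, against 12.2% and 30.5% of all genes.

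The chaperone calls depended on the scaling. With median-of-ratios scaling *CALR*, *HSP90B1* (adjusted p = 0.00683), *HSPA5* (0.0459), *PDIA4* (0.0368) and *PDIA6* (0.0315) were all higher in limma. Relative to the median of all genes, the median over the 10 ER folding and ERAD members was 0.10 higher and that over the 25 ATF4-target members 0.29 higher. The median of the ER folding and ERAD members was -0.0032 as deposited and 0.11 with median-of-ratios scaling. As deposited, 10.0% of these members were higher, against 12.2% of all genes. With median-of-ratios scaling 5 of the 10 were higher and 0 lower, against 21.8% and 19.6% of all genes.

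Of the 3 ERAD genes 2 were lower (66.7%, against 30.5% of all genes), 0 were higher (against 12.2%) and 1 was not called. *EDEM1*, which directs misfolded glycoproteins to degradation, was at 9.29, 9.86 and 9.72 TPM in shEV and at 8.16, 7.86 and 7.13 TPM in shPAX2. It was 1.25-fold lower with no overlap (log2 fold change -0.30, SE 0.08, limma adjusted p = 0.0168). *SEL1L*, the scaffold of the HRD1 ligase, was at 30.9, 31.0 and 34.0 TPM in shEV and at 26.4, 27.4 and 28.6 TPM in shPAX2. It was 1.16-fold lower with no overlap (log2 fold change -0.21, SE 0.06, limma adjusted p = 0.0264).

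Neither ERAD call held with median-of-ratios scaling (*EDEM1* adjusted p = 0.0869, *SEL1L* 0.204 in limma) or quantile normalization (*EDEM1* adjusted p = 0.384, *SEL1L* 0.125). *EDEM1* was also lost without shEV replicate 2 (0.0557) or shPAX2 replicate 3 (0.0631), and *SEL1L* without shEV replicate 3 (0.0778), shPAX2 replicate 1 (0.0583) or shPAX2 replicate 2 (adjusted p = 0.0819 in limma). *HERPUD1*, which recruits the degradation machinery, had 43.7 to 45.02 TPM in shEV and 37.1 to 47.6 TPM in shPAX2, so that the shPAX2 libraries spread on both sides of shEV. Of the 3 ERAD genes 0 were higher, also at an unadjusted p under 0.05 and by voom. With 12.2% of all genes higher in limma, a count of 0 among 3 genes says little.

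**Figure D4:**
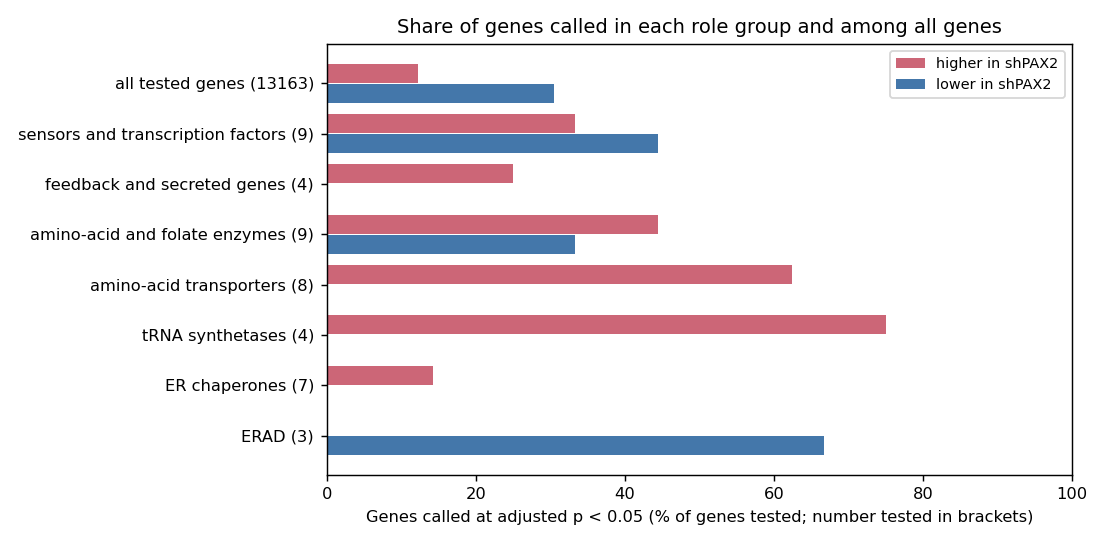
Percent of the tested genes called higher (red) or lower (blue) in shPAX2 at an adjusted p under 0.05, for all 13163 genes and for each role group of members, with the number tested in brackets. All genes were higher in 12.2% and lower in 30.5%, the transporters (62.5%) and tRNA synthetases (75.0%) were higher and 0 were lower, and the groups hold 3 to 9 genes each.

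Pairs of members that work together differed in their proportion, chosen after the values were seen and given with no test. The *SLC7A5* level over that of its partner *SLC3A2* was 0.255 to 0.317 in shEV and 0.392 to 0.462 in shPAX2. *PYCR1* over *ALDH18A1*, at the end and the beginning of proline synthesis, was 0.478 to 0.557 in shEV and 0.932 to 1.01 in shPAX2. *MTHFD2* over *SHMT2*, successive enzymes of mitochondrial folate, was 0.654 to 0.710 in shEV and 1.02 to 1.21 in shPAX2. *ATF4* over *DDIT3* was 7.35 to 10.2 in shEV and 20.2 to 20.7 in shPAX2. Apart from *SLC7A5* over *SLC3A2*, each pair divides a member called higher without overlap by a member called lower without overlap. The separation of those ratios therefore follows from the levels given above. All 4 are ratios of TPM within a library and so do not change with a scaling that multiplies the whole library.

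**Figure D5:**
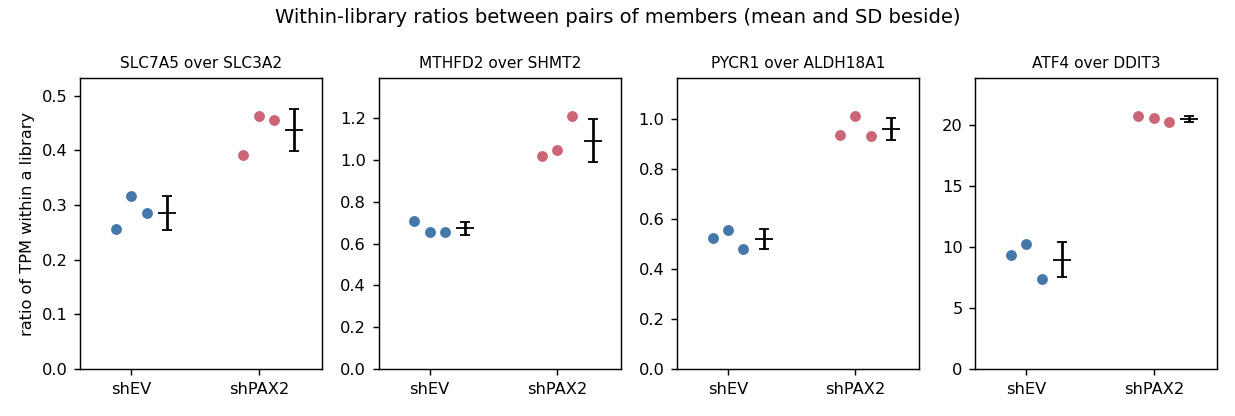
Ratio of the TPM of a pair of members within each library, with shEV in blue and shPAX2 in red, vertical axes from 0 and the mean and SD (n = 3) beside the points. Each of the 4 ratios is higher in all 3 shPAX2 libraries than in any shEV library, from 0.286 to 0.437 on average for *SLC7A5* over *SLC3A2* and from 8.96 to 20.5 for *ATF4* over *DDIT3*. Except for *SLC7A5* over *SLC3A2*, this follows from the separate levels of the members.

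Other genes of the pathway that are no members were then counted in 5 lists. Of 67 tested genes 16 were higher and 13 lower in shPAX2, 23.9% and 19.4% against 12.2% and 30.5% of all genes. The count of higher genes was 8 without shPAX2 replicate 2, 10 without shEV replicate 3 and 25 with median-of-ratios scaling, where the count of lower genes was 8. Among all genes the higher counts in these 3 fits were 1045, 1316 and 2867, against 1612 in the main fit. With median-of-ratios scaling 2579 of all genes were lower, against 4017.

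Of the 16 other cytosolic tRNA synthetases 6 (37.5%, against 12.2% of all genes) were higher and 0 lower (against 30.5%). The number lower was also 0 at an unadjusted p under 0.05 and by voom. *VARS*, for valine, had the largest rise of these, from 20.2 ± 1.48 to 28.2 ± 0.877 TPM (SD, n = 3, log2 fold change 0.47, SE 0.07, limma adjusted p = 0.000889). *TARS*, for threonine, had the smallest called rise, from 206 ± 16.4 to 236 ± 2.95 TPM (log2 fold change 0.20, SE 0.07, limma adjusted p = 0.0371), and lost its call without shEV replicate 2 (0.137), shEV replicate 3 (0.113), shPAX2 replicate 2 (0.107) or shPAX2 replicate 3 (0.0834). Of 6 other one-carbon enzymes 4 (66.7%) were higher and 1 (16.7%) lower, against 12.2% and 30.5% of all genes. *MTHFD1L*, the mitochondrial formate-producing enzyme, went from 25.5 ± 2.74 to 43.96 ± 4.02 TPM (log2 fold change 0.78, SE 0.09, limma adjusted p = 0.000300), and *SHMT1*, the cytosolic counterpart of *SHMT2*, had a log2 fold change of -0.36 (adjusted p = 0.00181).

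Of the 12 other tested ATF4-responsive genes 2 were higher (16.7%, against 12.2% of all genes) and 3 were lower. The lower share stood below the 30.5% of all genes. Both shares were near those of all genes, and counts among 12 genes say little. The list held the largest log2 fold changes among the members and the 5 lists. *NUPR1*, a stress-induced chromatin protein, was at 2.86, 1.36 and 1.21 TPM in shEV and at 13.7, 11.96 and 15.3 TPM in shPAX2 (log2 fold change 2.67, SE 0.26, limma adjusted p = 0.000411), on 10 to 191 reads. *DDIT4*, the mTORC1 inhibitor REDD1, was at 237, 263 and 333 TPM in shEV and at 87.0, 79.9 and 73.0 TPM in shPAX2 (log2 fold change -1.78, SE 0.13, limma adjusted p = 5.67e-05). *GDF15*, a secreted stress cytokine, was at 49.0, 41.8 and 50.2 TPM in shEV and at 19.8, 24.3 and 20.5 TPM in shPAX2 (log2 fold change -1.11, SE 0.10, limma adjusted p = 4.60e-05). The other called genes were *VLDLR*, which passed the filter only through its shEV libraries and so had to be lower, and *EIF4EBP1*, higher (log2 fold change 0.16, limma adjusted p = 0.0451). *GDF15*, *VLDLR* and *EIF4EBP1* were named after their values were seen, and *EIF4EBP1* lost its call whichever library was left out except shPAX2 replicate 1, with adjusted p from 0.0551 without shEV replicate 2 to 0.158 without shPAX2 replicate 2 in limma.

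Around the members upstream, 11 genes for eIF2alpha kinases, phosphatase subunits and eIF2B were tested. Of these 3 were higher (27.3%, against 12.2% of all genes) and 1 was lower (9.09%, against 30.5%). *EIF2S1*, which encodes eIF2alpha itself, went from 97.5 ± 3.21 to 121 ± 8.86 TPM (log2 fold change 0.31, SE 0.07, limma adjusted p = 0.00639). *EIF2AK4*, which encodes GCN2, the kinase that senses uncharged tRNA, went from 79.4 ± 1.64 to 59.3 ± 0.609 TPM (log2 fold change -0.42, SE 0.05, limma adjusted p = 0.000343). Of 22 other tested ER folding and ERAD genes 1 was higher and 8 were lower, and the lower share of 36.4% was close to the 30.5% of all genes. *DERL2*, a channel component for retrotranslocation, was the higher gene (log2 fold change 0.28, SE 0.05, limma adjusted p = 0.00329). *ERO1LB*, an ER oxidase, had the largest fall, from 4.29 ± 0.986 to 2.83 ± 0.00792 TPM (log2 fold change -0.50, SE 0.16, limma adjusted p = 0.0302), and its call did not hold with median-of-ratios scaling (0.0632) and was lost whichever library was left out except shEV replicate 2, with adjusted p from 0.0588 without shPAX2 replicate 1 to 0.109 without shEV replicate 3.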

How the data were processed

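Per the labels, total RNA of AN3CA cells was made into stranded libraries with the TruSeq Stranded Total RNA kit. The authors deposited TPM values per gene symbol, one column per library. The submitters' processing notes name bcl2fastq, STAR, Subread, featureCounts, edgeR and hg19, without versions. The study's methods describe its alignment for another cell line. Deposited ratios between libraries corresponded to whole reads for 100% of genes within a relative tolerance of 1e-11, which gave the depth. limma 3.58.1 in R 4.3.3 (trend and robust) was fitted without covariates to log2(TPM + 0.5) of 3 shPAX2 and 3 shEV libraries, two-sided, with Benjamini-Hochberg adjustment over 13163 genes. Log2 fold changes are on that scale, which understates those of low genes, and an N-fold value is the ratio of the mean TPM of the groups. An exact permutation test of 3 against 3 libraries cannot go below 0.1 and was not used. The scripts were tested on simulated data. Within a group, read counts of library pairs differed by more than sampling noise (chi-square per degree of freedom of 3.12 or more), so each library was counted separately. This value was 12.0 and 14.9 between shPAX2 replicate 1 and shPAX2 replicates 2 and 3. It was 3.72 between shPAX2 replicates 2 and 3, and 3.12 to 5.30 within shEV. Why shPAX2 replicate 1 stood apart was not tested. Coordinates of genes are from GENCODE on GRCh37 (the build of hg19), and all 45 members matched, 4 by an older symbol. Promoter sequences are from RefSeq.

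The members and lists were chosen with earlier results of these data known. Values in every library are printed for *ATF4*, *DDIT3*, *ATF6*, *EIF2AK3*, *ERN1*, *XBP1*, *HSPA5* and *ASNS* and for the 20 called members with the largest fold change. From each wider list, counts and the highest and lowest called genes are named. *FGF21*, *SLC7A3*, *DERL3* and *ALDH1L1* were not analysed here.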

Additional observations from a re-analysis of the deposited data

How the results depend on the processing

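No called member changed direction under the 17 other fits, and 17 of the 26 called members (12 higher, 5 lower) kept their call in all of them. Of the 18 members not called, 7 were called under at least 1 fit. With median-of-ratios scaling 5 members were lower in place of 9, and the median log2 fold change was 0.30 for the ATF4-target members and 0.11 for the ER folding and ERAD members. By construction, requiring also a log2 fold change of at least 1 left 0 members called, 0 higher and 0 lower, and an adjusted p under 0.01 left 17 called, 12 higher and 5 lower. Leaving out each library gave 18 to 23 members called, 12 to 15 higher and 6 to 8 lower, with medians of 0.16 to 0.21 for the ATF4-target members and -0.02 to 0.02 for the ER members. A few log2 fold changes of members that were not called changed sign, and the cause was not tested. With median-of-ratios scaling they were *CANX* (0.047), *ERN1* (0.0105), *HERPUD1* (0.0355), *PSAT1* (0.0095) and *SLC3A2* (0.065), and with quantile normalization *ERN1* (0.14), *SESN2* (0.0024) and *SLC7A11* (0.13). Thinning gave -0.0089 for *PPP1R15A*. Over the fits that leave out a library, the range was -0.16 to 0.035 for *ERN1*, -0.02 to 0.12 for *CHAC1*, -0.086 to 0.075 for *PPP1R15A*, -0.22 to 0.056 for *SLC7A11*, -0.10 to 0.0129 for *SLC3A2* and -0.16 to 0.0129 for *HERPUD1*.

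Same-numbered libraries did not deviate together (correlations of -0.05, 0.08 and 0.00). The values thus showed no pairing by number, which does not settle whether the libraries were prepared in pairs. With the replicate number as a block, 23 members were called, 16 higher and 7 lower, and *XBP1* (adjusted p = 0.0591), *SLC7A1* (0.0704) and *ALDH18A1* (0.0611) lost their call in limma. Pseudocounts of 0.1 and 1, a TPM filter of 5, the fit without trend or robust moderation, leaving out *RPPH1* and *RMRP*, no filter and voom gave 16 to 19 members higher and 8 or 9 lower, and quantile normalization gave 18 and 7. Settings for genes of the wider lists were added after the data were seen. *STC2*, *CHAC1* and *SLC6A9* had as few as 1, 26 and 27 reads in a library, which limits their precision.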

Other observations

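*STC2*, a secreted glycoprotein counted with the feedback genes and too low to test, was at 0.0349, 0.360 and 2.53 TPM in shEV and at 0.514, 0.236 and 0.153 TPM in shPAX2. Its highest value was in shEV replicate 3, on 122 reads against 1 and 17 reads in the other shEV libraries. *VEGFA*, an angiogenic factor that ATF4 is known to induce, was not called and was highest in the same library, at 32.6, 51.5 and 121 TPM in shEV and at 38, 35.8 and 34.7 TPM in shPAX2. *VLDLR*, a lipoprotein receptor, was at 1.02, 0.622 and 1.92 TPM in shEV, on 20, 20 and 63 reads, and had 0, 2 and 2 reads in shPAX2. These genes were picked after their values were seen.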
